A study of Arabidopsis thaliana with 16 samples.

Results

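The 31 genes described here were selected on measured values. Their transcripts rose in wild-type (WT) Arabidopsis (*Arabidopsis thaliana*) seedlings given arabidopside A, and untreated *fer* seedlings held no more of them, beyond a small margin, than untreated WT did. Levels are given as CPM, a gene's count scaled to a library total of 1000000 counts. A gene was kept where its mean over the treated WT libraries was at least 10 CPM, where the log2 ratio of treated to untreated WT (group means, each plus 1 CPM) was at least 0.6, where the lowest treated WT library lay above the highest untreated one, and where the same log2 ratio of untreated *fer* to untreated WT was at most 0.3. Of the 32833 genes in the count table, 435 met the conditions on WT. Only 31 of these (7.13%) also met the limit in untreated *fer*, and the other 404 (92.9%) lay above it. The WT response and the untreated *fer* level therefore describe how the genes were chosen, and neither is tested.

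The seedlings were 10 days old and either WT (accession Col-0) or *fer*, here the T-DNA insertion allele *fer-4* of the receptor kinase gene FERONIA (*FER*). All were moved from 1/2MS plates into 1/2MS liquid medium and left there for 2 h, and the treated ones then received arabidopside A (spelled Aradopside in the treatment labels) at 12.5 µM for another 2 h. WT and *fer* each had 4 untreated (control) and 4 treated libraries, numbered 1 to 4 within their group. RNA of whole seedlings was profiled with QuantSeq, which sequences transcripts from their 3′ ends, so that levels of different genes are not divided by gene length. *fer* was represented by 1 allele, the labels do not say what the control seedlings received in place of the lipid, and nothing in them says that replicates were separate cultures, so that p-values measure the spread between these libraries, which may be technical.

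Arabidopside A is a galactolipid of plastid membranes that carries esterified oxo-phytodienoic acid (OPDA), and it accumulates in wounded Arabidopsis leaves. Free OPDA is the precursor of jasmonic acid, the wound and defense hormone, and is itself a reactive electrophile that induces detoxification genes. FERONIA is a plasma membrane receptor kinase of the CrRLK1L family that binds RALF peptides and is required for cell wall integrity sensing. Genes of the jasmonate response are known to be raised in *fer* mutants without any treatment.

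The libraries held between 2843653 and 6860427 counts, except *fer* with arabidopside A replicate 2, which held 26358335. *FER* had 356 to 793 counts in the 8 WT libraries and 0 to 14 in the 8 *fer* libraries, so that the genotype labels and the data match. The summed level of 5 green tissue markers (Rubisco, light-harvesting and photosystem genes) was 13687 to 17549 CPM in the WT libraries and 4609 to 10706 CPM in the *fer* libraries, and none of the 5 was at 0. Within *fer*, the sum stood at 10706, 8772, 4609 and 7166 CPM in control replicates 1 to 4 and at 9600, 8183, 5881 and 4873 CPM in treated replicates 1 to 4. The summed level of 8 root hair and endodermis markers was 112 to 175 CPM in all but *fer* with arabidopside A replicate 4, where it was 59.0 CPM. The part of these differences in the results was not tested, and in whole seedlings fewer cells of a type and less RNA per cell cannot be told apart.

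**Figure D1:**
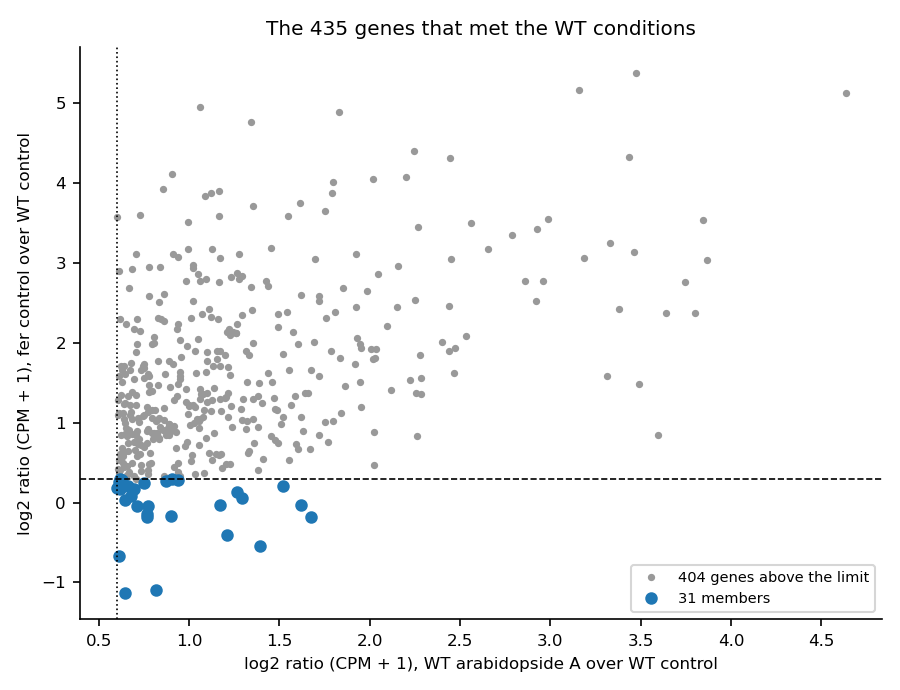
Each point is 1 of the 435 genes that met the conditions on WT; the horizontal axis is the log2 ratio (CPM + 1) of WT with arabidopside A to WT control, and the vertical axis is that of *fer* control to WT control. The dotted line marks the lower limit of 0.6 and the dashed line the upper limit of 0.3, below which the 31 genes lie, from -1.13 (AT5G62360) to 0.29 (*ERDL6*).

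The 31 genes were of moderate level and of varied annotation. Their mean in untreated WT ranged from 3.82 CPM (*SQP2*) to 686 CPM (*PME3*), with a median of 26.0 CPM, and 30 were annotated as protein-coding and 1, AT2G41312, as a noncoding RNA. In untreated *fer* 18 had a positive ratio to WT within the allowed margin, and 5 lay below -0.3, namely AT5G62360 (-1.13), *XTH16* (-1.09), *TLL1* (-0.66), *JOX4* (-0.54) and *SQP2* (-0.41). In WT their median fitted log2 fold change was 0.84, beside 1.17 for the other 404 genes. In the fit of all 16 libraries with edgeR, 13 of the 31 (41.9%) and 238 of the 404 (58.9%) passed an adjusted p threshold of 0.05 for the WT response, against 1.84% of the 18132 genes tested. These WT values only restate the selection.

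The libraries of *fer* with arabidopside A were the ones that the selection did not use, and they show how genes selected for a response in WT, and for a level not raised in untreated *fer*, stood in the treated mutant. Most of the 31 genes were higher on average in treated than in untreated *fer*, but few passed the test, and the *fer* libraries spread widely. The median log2 fold change in *fer* was 0.43 (quartiles 0.18 and 0.87, range -0.37 to 1.51), and 27 of 31 were positive, where the median over all 18132 genes was -0.01 and 48.0% were positive. Adjusted over all genes, edgeR's quasi-likelihood test called 3 of the 31 higher (9.68%) and 0 lower, against 0.37% of all genes called higher. The 3 were *ANNAT3*, AT4G36850 and *CYP81F4*. At an unadjusted p under 0.05, 14 of the 31 were higher and 0 lower, beside 788 higher and 643 lower of the 18132 genes. Among the 404 genes above the limit in untreated *fer*, 50 (12.4%) were called higher, with a median of 0.51, and 194 were higher at an unadjusted p under 0.05. The *fer* control mean entered the selection as an upper limit, so the *fer* response shares its control libraries with the rule.

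The number of calls rested on single libraries. It was 0 without *fer* control replicate 2, without *fer* control replicate 4 or without *fer* with arabidopside A replicate 2, with 15, 12 and 12 of the 31 at an unadjusted p under 0.05. It was 1 without treated *fer* replicate 1, 6 without *fer* control replicate 3 and 7 without treated *fer* replicate 4. Calls over all genes are not set beside these counts, so they do not show whether the shifts were particular to the 31. Replicates were less alike in *fer*, where pairs within a group differed by a chi-square per gene of 6.43 to 75.1, beside 2.71 to 4.52 in WT, and the fit of 16 libraries shares 1 estimate of the spread between them. This chi-square grows with the depth of the libraries, and the 75.1 is of a pair with treated *fer* replicate 2, the deepest library. Between *fer* control libraries it ranged from 6.43 to 40.6. In a fit of the 8 *fer* libraries alone, edgeR called 0 of the 31 and 0 of all genes, with adjusted p = 0.487 for *ANNAT3*, 0.537 for AT4G36850 and 0.428 for *CYP81F4*, while 12 of the 31 had an unadjusted p under 0.05 (4.66% of all genes).

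With each number of each genotype fitted as a block, edgeR called 8 of the 31 higher (25.8%), against 0.882% of all genes and 27.7% of the 404. The 5 added genes were *MSRB6*, *SQP2*, *OCT6*, *CYP89A2* and AT2G44940. The 4 same-numbered *fer* pairs deviated together (correlations of 0.19 to 0.61), but only 2 of the 4 *fer* controls correlated best with the treated library of their own number, since control replicate 2 was nearest to treated replicate 1 (0.50) and control replicate 3 to treated replicate 4 (0.69). The calls with the block rest on that pairing.

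Counted by library, the picture was similar. In 3 of the 31 genes (9.68%), *CYP81F4*, *JOX4* and *TMAC2*, every treated *fer* library lay above every *fer* control library, against 1.87% of all genes and 21.0% of the 404, and 0 of 31 lay wholly below. In 12 of the 31 (38.7%) the treated library was the higher in each of the 4 same-numbered *fer* pairs, against 7.13% of all genes and 44.6% of the 404. Set beside treated WT, the treated *fer* mean was lower for 23 of the 31 genes. The fitted difference between the *fer* and the WT response had a median of -0.36 over the 31, -0.675 over the 404 and -0.03 over all genes. It was negative for 27 of the 31, and it was positive for only 8 of the 404 (1.98%). A smaller response in *fer* was thus not particular to the 31. The part that WT plays in the difference is fixed by the selection, so no test is given. In 14 genes the *fer* change was less than 50% of the WT change, and in 4 (*ProDH1*, *CYP81F4*, AT4G22212 and *CYP89A2*) it was at least as large. The counts of 23 and 14 genes were not set beside the 404 or all genes.

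**Figure D2:**
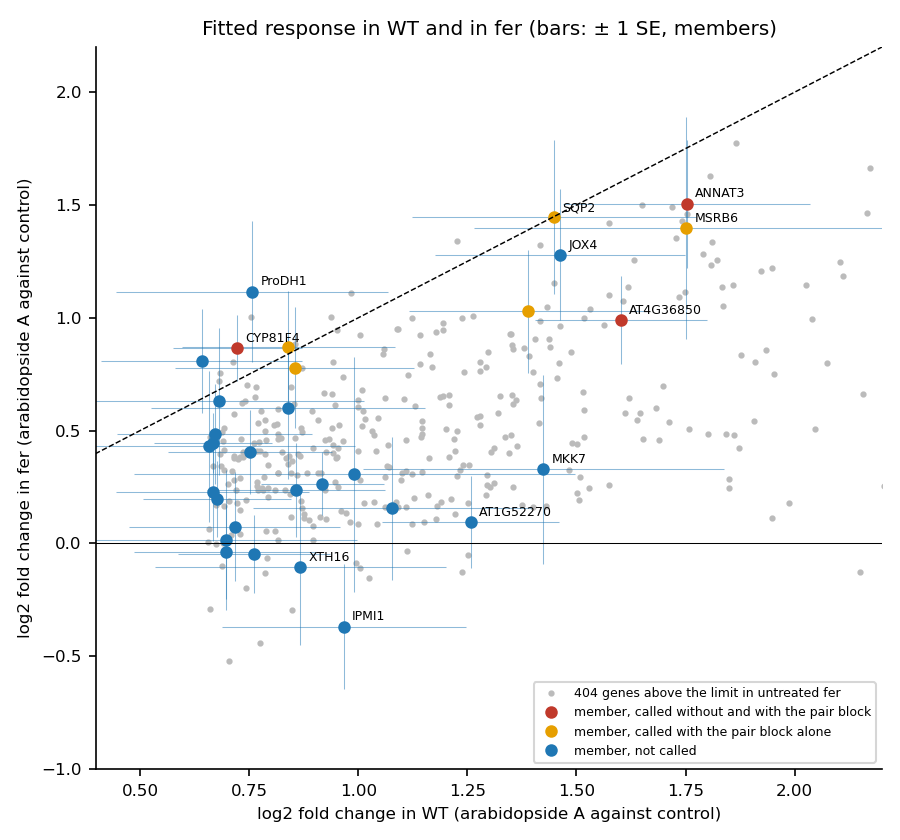
Fitted log2 fold change with arabidopside A in WT (horizontal) and in *fer* (vertical) from edgeR, with bars of 1 standard error for the 31 genes; grey points are the other 404 genes, of which 56 lie beyond the axes, and the dashed line marks equal change. Red points were called higher in *fer* without and with the block of numbers (3 genes), orange points with the block alone (5 genes), and blue points in neither fit; 4 of the 31 lie below 0 in *fer*.

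Promoter sequences were read from RefSeq's TAIR10.1 assembly for all 31 genes, because genes that move together may share short motifs, and 3 windows free of neighboring genes are shown. The G-box CACGTG, bound by MYC-type bHLH and by bZIP factors, occurred in 5 of the 31 promoters (16.1%; 250 bases before to 50 after the annotated start, both strands), in 18.1% of the 404 and in 8.77% of all genes tested. The 5 are AT2G41312, *SQP2*, *TLL1*, *FMOGS-OX3* and AT5G39790. Their fitted *fer* responses ranged from -0.04 to 1.45, so that holders of the motif were found across the order. The 250 bases upstream of 3 of them are printed on the gene's own strand with motifs in capitals. Capitals in AT2G41312 (chr2:17225273-17225522, plus strand) mark a TGA site (TGACGT) at -162 and G-boxes at -99 and -57, counted from the start. In *SQP2* (AT5G24140, chr5:8167777-8168026, minus strand) they mark a G-box at -170. In *TLL1* (AT1G45201, chr1:17123535-17123784, plus strand) they mark a W-box (TTGACT, here on the opposite strand) at -223 and a G-box at -107.
AT2G41312: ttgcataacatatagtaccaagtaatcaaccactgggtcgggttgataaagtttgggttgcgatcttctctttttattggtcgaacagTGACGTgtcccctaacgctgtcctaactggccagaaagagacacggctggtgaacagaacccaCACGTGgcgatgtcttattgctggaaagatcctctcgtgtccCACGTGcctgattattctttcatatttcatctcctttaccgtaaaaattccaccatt
SQP2: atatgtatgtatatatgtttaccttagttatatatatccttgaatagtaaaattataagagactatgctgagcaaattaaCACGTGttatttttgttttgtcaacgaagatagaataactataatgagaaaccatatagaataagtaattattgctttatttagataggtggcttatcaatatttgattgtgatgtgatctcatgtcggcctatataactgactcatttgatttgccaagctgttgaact
TLL1: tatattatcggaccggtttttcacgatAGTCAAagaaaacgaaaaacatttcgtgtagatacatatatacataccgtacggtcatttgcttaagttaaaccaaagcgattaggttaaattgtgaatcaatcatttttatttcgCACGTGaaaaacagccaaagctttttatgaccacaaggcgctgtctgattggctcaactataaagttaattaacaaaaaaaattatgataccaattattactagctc
The W-box (TTGACC or TTGACT), the site of WRKY factors, was found in 6 of the 31 promoters (19.4%), in 36.9% of the 404 and in 32.9% of all genes. The GCC-box (GCCGCC), read by ERF factors, and the heat shock element were in 0 of 31, against 2.76% and 0.54% of all genes. The remaining motifs searched were in 2 (TGA site, 9.68% of all genes), 1 (evening element AAATATCT, 5.93%), 3 (site II TGGGCC, 19.5%) and 2 promoters (CAMTA site CGCGT, 9.73%). The W-box and the TGA site share the letters TGAC but differ in the next base, so that the same TGAC cannot count for both. A match of letters is a description and not a binding site.

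The 3 genes called in *fer* encode an annexin, a membrane protein and a cytochrome P450. *ANNAT3* (AT2G38760) encodes a member of the annexins, proteins that bind membranes in the presence of calcium. It stood at 14.2, 9.67, 8.69 and 10.8 CPM in WT control replicates 1 to 4 and at 33.5, 36.7, 33.4 and 37.7 CPM in WT with arabidopside A. In *fer* it stood at 14.3, 11.3, 10.3 and 6.57 CPM without and at 48.9, 35.1, 24.1 and 13.7 CPM with arabidopside A. Each treated *fer* library exceeded its same-numbered control, and the groups overlapped only because treated replicate 4 lay just under control replicate 1. The log2 fold change in *fer* was 1.51 (SE 0.28, edgeR adjusted p = 0.0273), beside 1.75 in WT. It was called in 20 of 27 alternatives, adjusted p = 0.00022 to 0.487.

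AT4G36850 encodes a PQ-loop repeat protein, a family of membrane transporters. Its WT levels were 23.8, 25.5, 22.7 and 26.9 CPM in control and 77.9, 65.1, 74.8 and 73.3 CPM in treated seedlings. In *fer*, control replicates had 36.2, 31.6, 18.96 and 27.8 CPM and treated replicates 58.1, 73.9, 59.6 and 32.1 CPM. The 4 treated *fer* libraries exceeded all WT controls, and only treated replicate 4 fell within the range of the *fer* controls. The log2 fold change was 0.99 (SE 0.20, edgeR adjusted p = 0.0326) in *fer* and 1.60 in WT. It was called in 16 of 27 alternatives, adjusted p = 0.000634 to 0.537, and the losses included the fits without WT control replicate 2 and without treated WT replicate 1 or 3.

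*CYP81F4* (AT4G37410) encodes a cytochrome P450 that modifies the ring of indole glucosinolates, the tryptophan-derived defense compounds. It had 341, 341, 297 and 335 CPM in WT control and 506, 517, 469 and 611 CPM in treated WT. In *fer*, the controls had 448, 354, 315 and 272 CPM and the treated libraries 815, 609, 612 and 466 CPM. All treated *fer* libraries lay above all *fer* controls, by at least 17.3 CPM. The log2 fold change of 0.86 (SE 0.15, edgeR adjusted p = 0.0171) in *fer* stood beside 0.72 in WT, and it was called in 23 of 27 alternatives, adjusted p = 1.6e-05 to 0.428. *CYP81F4* overlaps the antisense gene AT4G37409 over 2140 bp of its 2149 bp, and without a stated strand setting reads of the pair cannot be told apart.

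**Figure D3:**
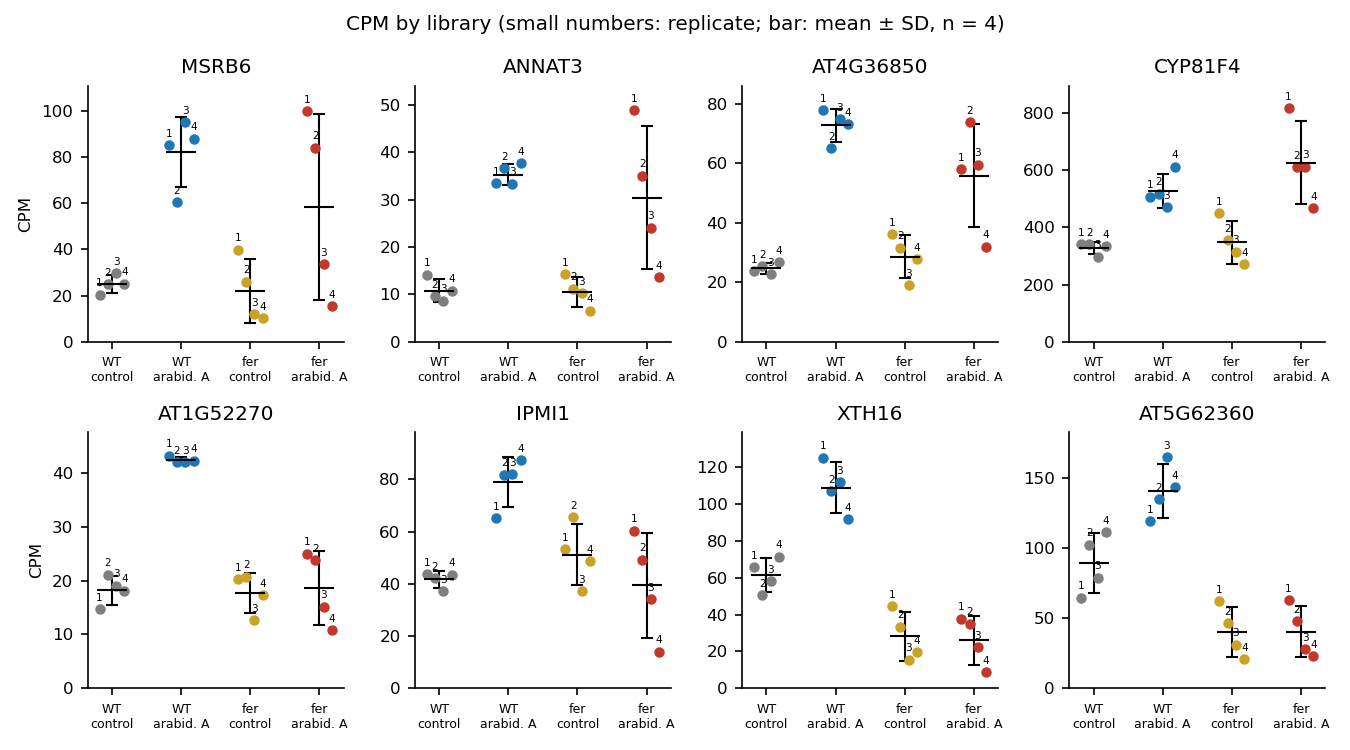
CPM of 8 of the 31 genes in each library (points, with the replicate number) and the group mean ± SD (n = 4), for both genotypes without and with arabidopside A (arabid. A). In the upper row the treated *fer* libraries mostly exceed the *fer* controls, while in the lower row (AT1G52270, *IPMI1*, *XTH16* and AT5G62360) the 2 sets overlap. Treated *fer* replicate 4 is the lowest of its group in all 8 panels. In AT1G52270, *IPMI1* and *XTH16* it also lies below every *fer* control.

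*MSRB6* (AT4G04840), a methionine sulfoxide reductase that repairs oxidized methionine in proteins, had the largest ratio in WT (1.67). It stood at 20.4, 24.9, 29.7 and 25.2 CPM in WT control and at 85.3, 60.6, 94.97 and 88.03 CPM in treated WT. In *fer* it stood at 39.9, 26.02, 12.01 and 10.15 CPM in control and at 99.9, 84.1, 33.5 and 15.3 CPM in treated seedlings. Each treated library was higher than its same-numbered control, by at least 5.16 CPM, but the treated libraries of replicates 3 and 4 lay within the range of the controls. The log2 fold change in *fer* was 1.40 (SE 0.49, edgeR adjusted p = 0.418), and with the block of numbers it was 1.34 (SE 0.16, adjusted p = 0.000257). It was called in 1 of 27 alternatives, adjusted p = 0.000257 to 1.

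Membrane and vacuolar carriers made up a further group, in which *OCT6* had the largest fitted change in *fer*. *OCT6* (AT1G16370), an organic cation and carnitine transporter, had 16.3 ± 4.43 CPM (mean ± SD, n = 4, here and for the other means) in WT control and 41.4 ± 3.03 in treated WT. Its *fer* libraries had 19.1, 22.9, 10.95 and 14.9 CPM in control and 47.9, 39.6, 33.7 and 15.3 CPM with arabidopside A. All but treated replicate 4 lay above the *fer* controls, and the log2 fold change was 1.03 (SE 0.27, edgeR adjusted p = 0.156), or 0.99 (SE 0.21, adjusted p = 0.0302) with the block (called in 4 of 27 alternatives, adjusted p = 0.00414 to 0.797). *ERDL6* (AT1G75220), a glucose exporter of the vacuole membrane, had a *fer* log2 fold change of 0.20 (SE 0.17), and *PHT2;1* (AT3G26570), the phosphate transporter of the chloroplast envelope, one of -0.04 (SE 0.17). *PHT2;1* stood at 25.6, 28.5, 26.1 and 26.6 CPM in *fer* control and at 35.4, 28.6, 18.99 and 19.8 CPM in treated *fer*, and the *fer* groups overlapped, whereas treated WT had 33.1, 49.04, 41.2 and 31.8 CPM. The major facilitator genes AT5G10820 and AT5G14120 had *fer* changes of 0.41 (SE 0.19) and 0.48 (SE 0.22), neither past the threshold (adjusted p = 0.622 and 0.62). AT5G14120 shares up to 374 bp with antisense genes. Shorter antisense overlaps were found for *ERDL6* (57 bp), *OCT6* (37 bp) and, described below, *MKK7* (44 bp).

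Of the jasmonate pathway, 2 genes were among the 31, and both have close relatives above the limit in untreated *fer*. This was not particular to them. Relatives of *MSRB6* (*MSRB5*, log2 ratio of untreated *fer* to WT 1.35) and of *CYP89A2* (*CYP89A5*, 0.90) also lay above it. *JOX4* (AT2G38240) encodes a jasmonate-induced oxygenase, which hydroxylates jasmonic acid to an inactive form. It stood at 33.4, 44.8, 24.9 and 43.1 CPM in WT control and at 82.9, 76.1, 115 and 116 CPM in treated WT. In *fer* it stood at 22.4, 14.8, 43.8 and 18.5 CPM in control and at 61.1, 66.5, 47.7 and 67.8 CPM in treated seedlings. All treated *fer* libraries lay above all *fer* controls, with control replicate 3 the nearest, and all 4 lay below every treated WT library. The log2 fold change was 1.28 (SE 0.29, edgeR adjusted p = 0.0762) in *fer* and 1.46 in WT. It was called in 3 of 27 alternatives, adjusted p = 0.000815 to 0.537, the lowest without *fer* control replicate 3, where the change was 1.74. The related genes *JOX2* and *JOX3* had means of 29.0 and 4.87 CPM in WT control and of 126 and 39.0 CPM in *fer* control, a ratio of 2.09 and 2.77 on the log2 scale, where *JOX4* had -0.54. *JOX1* did not meet the conditions on WT and is not shown.

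*AOC4* (AT1G13280) is 1 of 4 Arabidopsis allene oxide cyclases, the enzymes that form OPDA. Its levels were 102, 75.6, 71.3 and 86.1 CPM in WT control and 122, 125, 112 and 156 CPM in treated WT. In *fer* they were 118, 125, 76.05 and 83.3 CPM in control and 184, 125, 91.3 and 69.5 CPM with arabidopside A, with replicates 1 and 2 above 3 and 4 in both sets, and the groups overlapped. The *fer* change was 0.23 (SE 0.22, edgeR adjusted p = 0.86). *AOC1*, *AOC2* and *AOC3* met the conditions on WT as well, but their log2 ratios of untreated *fer* to WT were 3.18, 1.90 and 3.06, against 0.26 for *AOC4*. *AOC2*, for example, had means of 189 CPM in WT control and 704 CPM in *fer* control. *AOC1*, *AOC2* and *AOC3* are neighbors of similar sequence, and how their reads were divided was not examined.

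**Figure D4:**
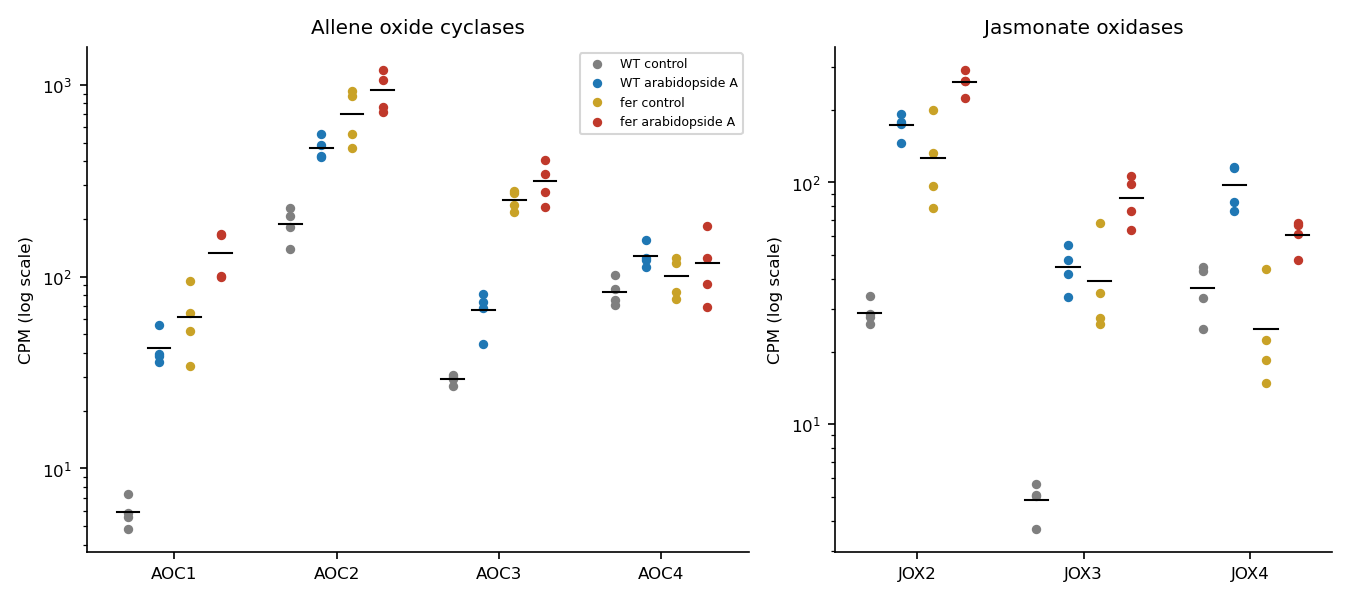
CPM on a log axis of the 4 allene oxide cyclase genes (left) and of 3 jasmonate oxidase genes (right) in every library (points) with the group mean (bars), colored by genotype and treatment. *AOC4* and *JOX4* have *fer* control means close to or below WT control (101 against 83.6 CPM and 24.9 against 36.6 CPM), while the *fer* control means of the other 5 genes lie above every WT control library.

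Lists of jasmonate and stress genes were set beside the 31 to show where the rest of the pathway stood. Of 18 jasmonate biosynthesis genes, 15 were tested and 9 met the conditions on WT, and *AOC4* was the only one of these below the limit in untreated *fer*. Of 10 jasmonate turnover genes, 9 were tested and 7 met the conditions on WT, with *JOX4* below the limit. The other lists that held genes meeting the conditions on WT had 0 below the limit, including the JAZ repressors (7 such genes), wound-type jasmonate outputs such as the VSP genes (7), electrophile and xenobiotic response genes (13), ethylene and jasmonate ERF factors (4), touch and early wounding genes (5) and core glucosinolate genes (6). In *fer* with arabidopside A, where edgeR called 0.37% of all genes higher, it called 1 of the 15 biosynthesis genes, 3 of the 9 turnover genes and 2 of 12 JAZ genes higher, with median log2 fold changes of 0.42, 1.14 and 0.70. It also called 2 of 7 wound-type outputs, 1 of 6 MYC and JAM factors and 2 of 29 electrophile response genes higher, with medians of 0.59, 0.30 and 0.53. Among the 9 ERF factors, 11 touch and early wounding genes and 17 glucosinolate genes tested it called 0, with medians of 0.03, 0.05 and -0.05, and 0 genes of these lists were called lower. Heat shock, flavonoid, clock and Aux/IAA lists held no gene that met the conditions on WT, and 0 of theirs were called in treated *fer*. These lists are not complete. AT1G54050, a small heat shock protein-like chaperone, and *UGT78D1*, which acts on flavonols, are among the 31 but not on them.

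Besides *CYP81F4*, a pair of genes for methionine-derived (aliphatic) glucosinolates was among the 31, a grouping made after the values were seen. *IPMI1* (AT3G58990), a small subunit of isopropylmalate isomerase that acts in side-chain elongation, had 43.8, 42.3, 37.1 and 43.5 CPM in WT control and 65.03, 81.7, 81.9 and 87.2 CPM in treated WT. Its *fer* levels were 53.4, 65.4, 37.3 and 48.6 CPM in control and 60.3, 49.2, 34.2 and 13.99 CPM with arabidopside A. It was the gene with the lowest *fer* change, -0.37 (SE 0.28, edgeR adjusted p = 0.812), with 3 of 4 pairs lower in the treated library, and 0 treated *fer* libraries reached the lowest treated WT library. *FMOGS-OX3* (AT1G62560), which oxygenates the side chain, had 27.3 ± 3.08 and 42.8 ± 3.09 CPM in WT without and with arabidopside A. Its *fer* libraries had 39.3, 27.1, 29.9 and 31.04 CPM in control and 40.4, 34.2, 34.5 and 14.4 CPM when treated, a change of -0.04 (SE 0.21, edgeR adjusted p = 0.988), and 3 of the 4 treated libraries lay within the range of the controls or just above it. The sign turned to 0.18 without treated replicate 4. On the core list, *CYP79F1* and *BCAT4* of the same pathway met the conditions on WT but had untreated *fer* ratios of 0.36 and 0.89.

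Of 3 cell wall genes, *XTH16* and AT5G62360 stood low in every *fer* library, and *PME3* did not. *XTH16* (AT3G23730), a xyloglucan endotransglucosylase/hydrolase that cuts and rejoins xyloglucan, had 65.7, 50.7, 58.3 and 71.5 CPM in WT control and 125, 107, 112 and 91.8 CPM in treated WT. In the mutant, *XTH16* had 44.5, 33.4, 15.6 and 19.7 CPM in control and 37.8, 35.1, 22.3 and 8.89 CPM with arabidopside A. Every *fer* library, treated or not, lay below every WT library, and *fer* with and without the lipid overlapped, with a change of -0.10 (SE 0.35, edgeR adjusted p = 0.981). AT5G62360, annotated as an invertase/pectin methylesterase inhibitor, had 64.7, 103, 78.9 and 112 CPM in WT control and 119, 135, 165 and 143 CPM in treated WT. In *fer* it had 62.4, 46.4, 31.2 and 20.9 CPM in control and 63.1, 47.8, 28.1 and 23.03 CPM with arabidopside A, a change of 0.01 (SE 0.31, edgeR adjusted p = 0.998). Same-numbered *fer* libraries of AT5G62360 differed by at most 3.1 CPM, while the numbers differed from each other by up to 41.5 CPM. These were the only 2 of the 31 that passed the threshold as lower in untreated *fer*, a contrast that the selection used, in which 12.1% of all genes were lower.

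*PME3* (AT3G14310), a pectin methylesterase and the most abundant of the 31, had 728, 654, 653 and 708 CPM in WT control and 1295, 1186, 1234 and 1314 CPM in treated WT. The *fer* libraries had 830.2, 1052, 676 and 758 CPM in control and 1213, 1068, 989 and 675 CPM with arabidopside A. The *fer* groups overlapped, with a log2 fold change of 0.27 (SE 0.14, edgeR adjusted p = 0.685) beside 0.92 in WT.

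Lipid and secondary metabolism added 5 genes. *SQP2* (AT5G24140), annotated as squalene monooxygenase 2 of the sterol pathway, was the least abundant, with 3.85, 3.82, 3.84 and 3.78 CPM in WT control and 10.5, 7.24, 9.78 and 13.1 CPM in treated WT. Its *fer* values were 4.23, 1.41, 3.37 and 1.49 CPM in control and 8.41, 10.2, 7.76 and 3.35 CPM with arabidopside A, higher in 4 of 4 pairs. The log2 fold change was 1.45 (SE 0.34, edgeR adjusted p = 0.0807), beside 1.45 in WT, and it was called in 4 of 27 alternatives, adjusted p = 0.00678 to 0.694. *TLL1* (AT1G45201), a triacylglycerol lipase-like protein, had 226, 181, 101 and 103 CPM in *fer* control and 343, 276, 115 and 88.3 CPM in treated *fer*, against 227.3, 255, 234 and 254 CPM in WT control and 325, 391, 385 and 385 CPM in treated WT. In *TLL1* the difference between *fer* numbers exceeded that between treatments, and the *fer* change was 0.43 (SE 0.34, edgeR adjusted p = 0.818). *CYP89A2* (AT1G64900), a cytochrome P450, had 47.7, 34.5, 23.4 and 18.5 CPM in *fer* control and 62.9, 74.1, 56.5 and 31.05 CPM when treated, a change of 0.87 (SE 0.24, edgeR adjusted p = 0.207), and it was called in 3 of 27 alternatives, adjusted p = 0.00755 to 0.878. *UGT78D1* (AT1G30530), which attaches rhamnose to flavonols, had a *fer* log2 fold change of 0.60 (SE 0.32, edgeR adjusted p = 0.694), and the acyltransferase gene AT5G67150 one of 0.15 (SE 0.32).

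The signaling and regulatory genes were *MKK7*, *TMAC2*, *STY46* and AT2G44940. *MKK7* (AT1G18350), a MAP kinase kinase, had 7.22, 5.35, 6.68 and 7.76 CPM in WT control and 17.3, 14.7, 21.1 and 17.39 CPM in treated WT. In *fer* it had 11.5, 9.14, 3.16 and 6.27 CPM in control and 15.6, 12.1, 7.60 and 2.04 CPM with arabidopside A. The *fer* range of *MKK7* was wide in both sets, from above the WT controls in replicates 1 and 2 to below them in the lowest libraries, and its change was 0.33 (SE 0.42, edgeR adjusted p = 0.913). *TMAC2* (AT3G02140), of the ABI five-binding protein family that dampens abscisic acid responses, had 47.7, 49.9, 54.98 and 43.6 CPM in *fer* control and 56.3, 73.4, 74.2 and 59.5 CPM when treated. All treated *fer* libraries of *TMAC2* lay above the controls, with a change of 0.45 (SE 0.13, edgeR adjusted p = 0.255), beside 0.67 in WT. *STY46* (AT4G38470), a kinase that phosphorylates chloroplast transit peptides, had 45.3, 40.8, 123 and 39.99 CPM in *fer* control and 88.3, 84.5, 77.1 and 135 CPM when treated. Control replicate 3 of *STY46* was above the other controls, and the change was 0.63 (SE 0.33, edgeR adjusted p = 0.685) with it and 1.25 without it, where the adjusted p was the lowest of its range (called in 1 of 27 alternatives, adjusted p = 0.00344 to 1). AT2G44940, a DNA-binding protein of the ERF family, had 19.3, 10.6, 8.64 and 8.36 CPM in *fer* control and 30.03, 21.4, 17.8 and 11.7 CPM when treated, higher in 4 of 4 pairs, with a change of 0.78 (SE 0.27, edgeR adjusted p = 0.369), and it was called in 1 of 27 alternatives, adjusted p = 0.0342 to 0.991.

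*ProDH1* (AT3G30775), the proline dehydrogenase that starts proline breakdown, had 114, 104, 114 and 117 CPM in WT control and 212, 185, 178 and 160.3 CPM in treated WT. In *fer* it had 98.7, 55.2, 181 and 98.5 CPM in control and 157, 195, 210.2 and 364 CPM with arabidopside A, a change of 1.12 (SE 0.31, edgeR adjusted p = 0.226). The treated library was higher in 4 of 4 pairs and the treated mean exceeded that of WT by a ratio of 1.26, but control replicate 3 lay among the treated libraries. Without that library the change was 1.52 and the adjusted p was the lowest of its range (called in 2 of 27 alternatives, adjusted p = 0.0181 to 0.899). The defensin-like gene AT4G22212 had 772, 776, 523 and 621 CPM in *fer* control and 1499.9, 1256, 1322 and 590.0 CPM when treated, a change of 0.81 (SE 0.23, edgeR adjusted p = 0.226) against 0.64 in WT.

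Among the remaining genes, AT1G52270 differed between treated *fer* and treated WT in every library. It encodes an uncharacterized protein and had 14.7, 21.1, 19.05 and 18.16 CPM in WT control and 43.2, 42.1, 42.02 and 42.3 CPM in treated WT. In *fer* it had 20.3, 20.7, 12.6 and 17.3 CPM in control and 25.03, 23.8, 15.2 and 10.8 CPM with arabidopside A, a change of 0.10 (SE 0.20) beside 1.26 (SE 0.20) in WT. The treated WT libraries lay within 1.2 CPM of each other, and all treated *fer* libraries lay below them. The other genes whose treated *fer* libraries all lay below the lowest treated WT library were *JOX4*, *IPMI1*, *XTH16*, AT5G62360 and AT1G54050, 6 of 31 in all. The selection asked for treated WT libraries above all untreated ones, so this count partly follows from it. No share of all genes was set beside it. AT1G54050, a small heat shock protein-like chaperone, had 12.3, 10.9, 8.01 and 5.67 CPM in *fer* control and 14.6, 11.5, 9.25 and 7.87 CPM when treated, and 17.5, 19.6, 18.04 and 17.7 CPM in treated WT. The noncoding RNA AT2G41312 had 12.9, 22.9, 4.21 and 4.18 CPM in *fer* control and 26.6, 14.6, 7.60 and 4.66 CPM when treated, with a log2 fold change of 0.31 (SE 0.52). AT5G39790, annotated as a protein targeting to starch, had a *fer* log2 fold change of 0.07 (SE 0.24).

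Many of the 31 genes shared an order of the *fer* libraries by number. The selection set no such order, but it used the mean of the *fer* control libraries as an upper limit. In 19 of the 31 (61.3%) *fer* replicates 1 and 2 both lay above replicates 3 and 4, in the control and in the treated set, against 20.9% of all genes and 18.6% of the 404. This count was chosen after the values were seen, and genes are not independent of each other. The control part of the count is not independent of the selection either, since low control libraries lower the mean under the limit. The 404 lay above that limit. As a median over the 31 (log2 of CPM + 1, minus the WT control mean), *fer* control replicates 1 to 4 stood at 0.31, 0.19, -0.15 and -0.17, and treated *fer* replicates at 0.82, 0.64, 0.34 and -0.15. WT control replicates stood between -0.05 and 0.06 and treated WT replicates between 0.72 and 0.90. Treated *fer* replicate 1 was thus within the range of treated WT on this measure, while treated replicate 4 lay below every WT library. The number of genes above all 4 WT control libraries was 21, 17, 7 and 5 in *fer* control replicates 1 to 4 and 29, 27, 18 and 8 in the treated ones. Treated replicate 4 was the lowest of its group in 24 of the 31 genes and treated replicate 1 the highest in 21. No share of all genes or of the 404 was set beside these counts. They therefore do not show whether the order belongs to the 31 or to the libraries. The summed green tissue markers given above had the same order of numbers (1 and 2 above 3 and 4 in both sets), and the part of that in the result was not tested. A smaller set, *ProDH1*, *STY46*, AT5G14120, *ERDL6* and *JOX4*, was highest in *fer* control replicate 3 and in treated replicate 4 (5 of 31, 16.1%), a share near the 15.9% of all genes.

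**Figure D5:**
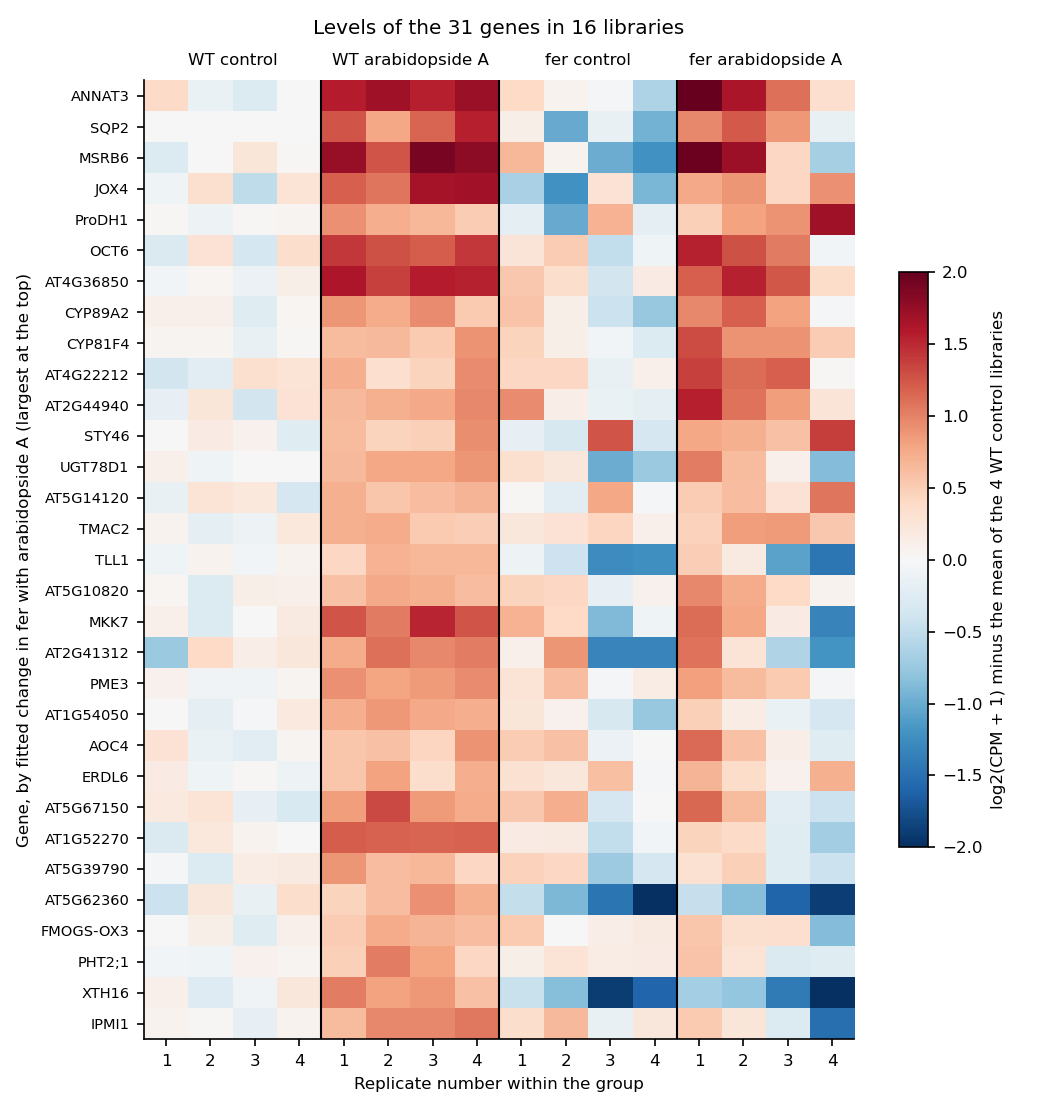
Level of each of the 31 genes (log2 of CPM + 1, minus the mean of the 4 WT control libraries; red higher, blue lower) in the 16 libraries, by group and replicate number, ordered by the fitted change in *fer*. The 4 treated WT columns are red throughout, by selection, while in both *fer* sets replicates 1 and 2 stand above replicates 3 and 4 in 19 of the 31 genes.

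The limits of the selection cut through a continuum. *SQP2* was kept at a treated WT mean of 10.2 CPM and *HIPP25* left out at 9.15 CPM. *GSTU22*, of the electrophile response list, met the other conditions and was left out at 8.11 CPM. Its means were 3.08 CPM in WT control and 2.39 CPM in *fer* control. AT4G22212 was kept at a WT log2 ratio of 0.6003 and *SBP2* left out at 0.594. At the limit in untreated *fer*, *ERDL6* and *IPMI1* were kept at 0.29 and AT1G62660 was left out at 0.3001. The smallest gap between treated and untreated WT libraries among the kept genes was 3.39 CPM (*SQP2*), and AT3G02510 was left out with a gap of -0.0155 CPM. With a limit of 0 in untreated *fer* 13 genes would remain, and with 0.6 there would be 70.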

How the data were processed

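The deposited values are counts per gene. The authors made them from QuantSeq libraries with STAR as the aligner, TAIR10 as the genome and htseq-count (intersection-nonempty) as the counter. SAMtools is named as well. Versions and the strand option are not given in the sources used here. The counts were not normalized, and no test is stated for these transcripts. Of 32833 genes, 6850 had no count.

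CPM was computed from the column totals. Counts were normalized by TMM, filtered by edgeR's expression filter (18132 genes kept) and tested with the robust quasi-likelihood test (edgeR 4.0.16, R 4.3.3; 16 libraries, 1 coefficient per group) with Benjamini-Hochberg adjustment over all genes. On simulated data it recovered 74 of 100 genes changed by 1 on the log2 scale and 99 of 100 changed by 2 in the *fer* contrast (17908 genes). Alternatives were other normalizations, filters and limits, DESeq2 1.42.0, limma-voom 3.58.1, replicate blocks and left-out libraries.

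Members, lists and motifs were chosen with earlier results of these data known. Genes were named by a rule that took the largest WT ratios, the genes called in *fer*, the lowest *fer* changes and untreated *fer* ratios, the most abundant genes, genes on a list and those at each limit; the text adds the other members. Deviations of same-numbered *fer* libraries correlated at 0.19 to 0.61 and those of WT at -0.04 to 0.01. Every same-numbered *fer* pair was over 0.1, so the number was kept as a block, but different-numbered *fer* pairs ranged from -0.62 to 0.69 and 2 of 4 *fer* controls correlated best with another number. Library pairs within groups differed by more than sampling noise (24 pairs, chi-square per gene at least 2.71). Names and promoters came from RefSeq's TAIR10.1, which matched 32548 gene identifiers and all 31 members; positions are on that assembly. Near-identical copies of the last 300 bases (50 bases at 95% identity) were found for 0 of the 31.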

Additional observations from a re-analysis of the deposited data

Results flagged for a closer look

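In 128 groups of 4 libraries (the 31 genes and the library totals in each group), 5 held a library set apart from the other 3 by a gap test at the 95% level, and chance alone gives about 1 in 20. *CYP81F4* had 297 CPM in WT control replicate 3, where the others had 335 to 341. AT5G67150 had 20.1 CPM in WT with arabidopside A replicate 2, where the others had 13.1 to 14.2. *TLL1* had 325 CPM in WT with arabidopside A replicate 1, where the others had 385 to 391. *STY46* had 123 CPM in *fer* control replicate 3, where the others had 40.0 to 45.3. In *fer* with arabidopside A, replicate 2 held 26358335 counts, and the group's median was 6457758.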

How the results depend on the processing

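Calls in *fer* with arabidopside A (3 of 31) were 1 with library size alone as the scaling, 7 with DESeq2, 0 in a fit of the 8 libraries of the contrast (12 at an unadjusted p under 0.05) and 8 with a replicate block of genotype and number, and 3 with a block of the number shared by the genotypes. Over all genes, 67 were called higher in the main fit, 43 with library size alone and 162 with DESeq2. The block of genotype and number gave 160 and the shared number 51. With the *fer* libraries of number 4 left out, an alternative chosen after seeing the data, calls among the 31 were 7. Leaving out 1 library at a time gave 0 to 7. Calls in WT (13) were 24 with the replicate block of genotype and number, where 2.84% of all genes were called higher. They were 30 in the fit of 8 libraries and 6 to 19 when 1 library was left out. Calls in untreated *fer* (2) were 4 without number 4 and 1 to 3 with 1 library left out. For the WT fit of 8 libraries and the fits with libraries left out, calls over all genes are not given. The median *fer* change ranged from 0.281 to 0.526 and the median difference between responses from -0.552 to -0.302 with 1 library left out. The 31 genes became 13 with a limit of 0 in untreated *fer*, 70 with 0.6, 8 with a WT ratio of at least 1, and 23 to 43 with 1 library left out. Of 837 alternatives for single genes, 769 kept direction and side of the threshold, 22 lost the call, 21 gained it and 25 turned the sign. Without the *fer* libraries of number 4 the *fer* change turned to 0.18 for *FMOGS-OX3*, -0.012 for *ERDL6*, 0.05 for *XTH16*, 0.046 for *PHT2;1* and -0.008 for AT5G62360. With 1 library left out it ranged from -0.17 to 0.18 for *FMOGS-OX3*, -0.30 to 0.19 for *XTH16*, -0.043 to 0.27 for AT1G52270, -0.12 to 0.25 for AT5G39790, -0.24 to 0.28 for AT5G62360, -0.15 to 0.35 for AT5G67150, -0.037 to 0.39 for *AOC4*, -0.17 to 0.86 for AT2G41312 and -0.20 to 0.051 for *PHT2;1*. The cause of these changes was not tested. In simulation 74 of 100 genes changed by 1 on the log2 scale were recovered in *fer*. All libraries were drawn there with the same spread per gene, so this share does not measure recovery in the more widely spread *fer* libraries. Smaller changes were not simulated, and with 4 libraries a group a change that was not called is not shown to be absent.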
